A study of Mus musculus with 15 samples.

Results

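The amino acid transporter genes described here were all gene symbols of the count table that name a numbered member of 1 of 7 solute carrier families (Slc1, Slc3, Slc6, Slc7, Slc36, Slc38 and Slc43), 59 of the 24421 genes listed. Expression was measured by RNA sequencing in 15 libraries of primary proximal tubule cells from kidneys of C57BL/6 mice, passaged once in culture. The groups were male Diet1 KO (n = 3), male WT (n = 4), female Diet1 KO (n = 4) and female WT (n = 4). Diet1 is the product of Malrd1, a gene known from the small intestine and the kidney tubule. How the KO allele was made, whether it acts in the tubule alone, and the age of the mice are not given in the sources used here, and the targeted gene was not analysed here, which leaves the genotype labels unchecked. Each group is 1 pool of cells, taken from 3 to 4 mice and divided into 4 technical replicates according to the labels. The p-values below therefore measure the spread between technical replicates, and the KO genotype and the pool or culture it was measured in cannot be told apart.

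Proximal tubule cells take back almost all filtered amino acids. Sodium-coupled carriers and exchangers of the apical brush border bring them in, among them Slc6a19 and Slc6a18 for neutral amino acids, Slc1a1 for glutamate and aspartate, and the pair of Slc3a1 and Slc7a9 for cystine and cationic amino acids. Basolateral exchangers and facilitators (Slc3a2 with Slc7a7 or Slc7a8, and Slc43a2) pass them on to the blood. Most Slc7 light chains reach the membrane only when linked to a heavy chain, Slc3a2 or Slc3a1. Growing cells of many kinds rely on another set, which includes Slc7a5 and Slc1a5 for large neutral amino acids and glutamine and the sodium-coupled carriers Slc38a1 and Slc38a2. The families also hold carriers of other molecules, such as creatine (Slc6a8), monoamines (Slc6a2, Slc6a3 and Slc6a4) and nucleobases (Slc43a3).

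The libraries held 17648416 to 30896637 counts each, and a floor of 3 counts stood for 0.0971 to 0.170 CPM (counts scaled to the library total). Of 23 proximal tubule markers, 14 passed the count filter, with Pax8 at 126, 116, 116 and 129 CPM in male KO, male WT, female KO and female WT cells. Slc4a4, Cdh6, Lrp2 and Cubn were also present, as were Ggt1 and Gatm, with values given below. Of the 23 markers, 11 reached 1 CPM in every library. Several markers of the mature transporting cell were at or near 0: Slc34a1 had 4 counts, and Slc34a3, Slc22a6, Slc22a8, Kap and Acsm2 had 1 count each, over all 15 libraries. The proximal tubule markers were thus present in part.

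Of the 59 members, 29 were detected, meaning at least 1 CPM in every library of at least 1 group. Detection was most complete in Slc3 (2 of 2), Slc38 (8 of 11), Slc43 (2 of 3) and Slc7 (9 of 15), and less so in Slc36 (2 of 4), Slc1 (2 of 7) and Slc6 (4 of 17). Slc3a1 and Slc7a8 were detected in only 1 of the 4 groups each. Another 14 had more than 3 counts in some library but stayed below detection (Slc1a1, Slc1a2, Slc1a3, Slc1a6, Slc6a3, Slc6a12, Slc6a13, Slc6a14, Slc6a15, Slc6a18, Slc6a19, Slc7a15, Slc36a2 and Slc43a1). In 7 members no library held more than 3 counts (Slc6a2, Slc6a4, Slc6a7, Slc7a9, Slc7a10, Slc7a14 and Slc38a8), and 9 had no count in any library (among them Slc1a7, Slc6a5, Slc6a11, Slc7a12, Slc7a13, Slc36a3, Slc38a5 and Slc38a11). For a member at 0, a level up to the floor of its library is allowed at this depth, and the floor covers counting error only.

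The carriers that define uptake at the kidney's brush border were at or near the floor. Slc6a19, the main neutral amino acid carrier of that membrane, had 68 counts in all 15 libraries together and at most 9 in any one. Slc1a1 had 37 counts, Slc6a18 14, Slc7a9 8 and Slc36a2, a proton-coupled carrier of glycine and proline, 8. Slc7a13, the aspartate and glutamate exchanger of the late proximal tubule, had none. Slc6a20a and Slc6a20b, carriers of proline that lie outside the 59 because their symbols end in a letter, had 6 and 0 counts. Slc3a1, the heavy chain that pairs with Slc7a9, averaged 0.884 and 1.08 CPM in male KO and WT cells and 1.35 and 1.48 CPM in female KO and WT cells. In Slc3a1, 26.5% of the exon bases overlap exons of Prepl on the other strand, and in Slc1a1 31.9% overlap 4430402I18Rik. The libraries were strand-specific, but whether the counting used strand is not stated, so reads of such pairs cannot be told apart.

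Levels were compared between genes per length, as TPM computed here from the counts and exon lengths (counts per kilobase of exon, scaled to the same sum in each library). On this scale the members summed to 1418 ± 14.6 in male KO, 1466 ± 29.1 in male WT, 1429.6 ± 27.0 in female KO and 1378 ± 18.7 in female WT cells (SD over libraries). The 5 highest members held 58.9% of the mean sum. Slc38a2, a sodium-coupled carrier of small neutral amino acids, was first at 225 ± 9.83 (SD, n = 15), followed by the heavy chain Slc3a2 at 182 ± 6.08 and the taurine carrier Slc6a6 at 176 ± 21.4. The order of Slc3a2 and Slc6a6 differed between groups. They stood at 182.9 ± 6.23 and 200.1 ± 9.70 in male WT cells (SD). In female WT cells they stood at 174.9 ± 2.05 and 146.9 ± 7.92. Slc7a5, the main exchanger of large neutral amino acids, had 148 ± 7.98 and Slc7a1, a carrier of arginine and lysine, 108 ± 4.51. Exon lengths were those of all annotated exons together, which can exceed the length of the transcript a cell uses and then lowers the value.

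Within families, a single member often held most of the level per length. Slc3a2 made up 98.7% of Slc3, Slc36a1, a proton-coupled carrier of lysosomes, 71.7% of Slc36, Slc1a4, a serine and alanine carrier, 69.3% of Slc1, and Slc43a2, a facilitator of neutral amino acids, 67.3% of Slc43. Slc6a6 made up 61.8% of Slc6 and Slc38a2 51.1% of Slc38. In Slc7 the share was lower, with Slc7a5 at 40.4%. Slc38a10 (99.1 ± 4.66), Slc6a8 (79.3 ± 5.82), Slc1a4 (78.9 ± 3.94), Slc7a6 (70.0 ± 3.37), Slc38a1 (56.7 ± 2.32) and Slc38a7 (42.8 ± 2.95) came next. The order of Slc6a8 and Slc1a4 also differed between groups, at 86.8 ± 2.28 and 77.4 ± 2.64 in male WT cells (SD). In female KO cells they stood at 73.0 ± 1.34 and 82.1 ± 1.63. The other detected members ranged from 33.7 for the glutamine carrier Slc1a5 down to 0.833 for Slc7a8.

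**Figure D1:**
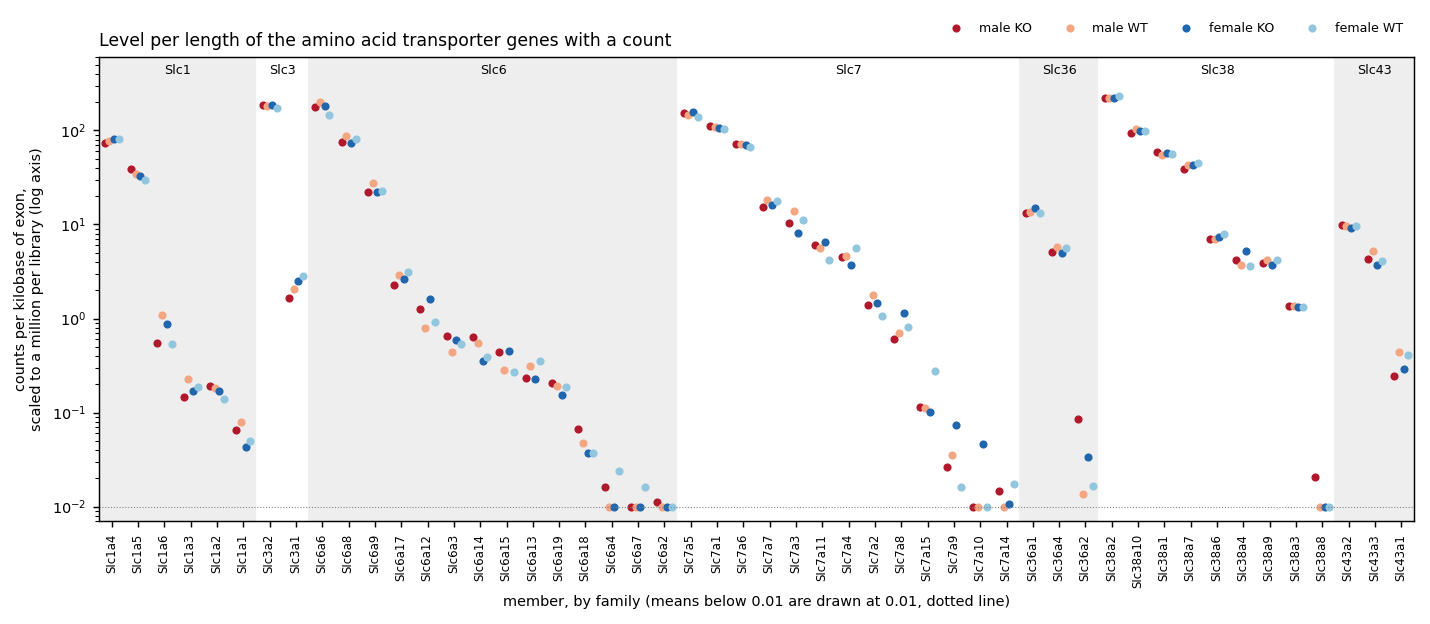
Level of the 50 members with a count in any library, per length (TPM computed from counts and exon lengths, log axis), ordered by family, with 1 point for the mean of each of the 4 groups. Slc38a2, Slc3a2 and Slc6a6 lie at the top with means over all libraries of 225, 182 and 176, and means below 0.01 are drawn at 0.01.

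Slc3a2 forms disulphide-linked pairs with 6 light chains (Slc7a5, Slc7a6, Slc7a7, Slc7a8, Slc7a10 and Slc7a11). Their summed level per length over that of the heavy chain was 1.33 ± 0.0495 in male KO and 1.32 ± 0.0529 in male WT cells, and 1.35 ± 0.0473 in female KO and 1.299 ± 0.0342 in female WT cells (SD). The ranges of KO and WT libraries overlapped in both sexes. Slc7a5 was 61.8 ± 0.800% of the light chain sum in male KO, 60.0 ± 1.04% in male WT, 62.5 ± 0.981% in female KO and 60.9 ± 0.914% in female WT cells. Slc7a6, which exchanges cationic for neutral amino acids, held 28.1% to 29.9% over the 4 group means, and Slc7a8, the light chain known from the basolateral side of the proximal tubule, at most 0.460%.

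KO was set against WT within each sex, which asks what loss of Diet1 goes with in male and in female tubule cells. The count filter left 35 members for testing, and a call means an adjusted p below 0.05 in edgeR's quasi-likelihood test, adjusted over all 13912 genes tested. In male cells 8 of 35 members were called, 3 higher in KO (Slc1a5, Slc38a1 and Slc7a5) and 5 lower (Slc7a3, Slc6a6, Slc6a8, Slc6a9 and Slc38a10). Over all genes tested 20.2% were called in male cells, 10.1% higher and 10.1% lower. In female cells 16 of 35 were called, 13 higher in KO (Slc1a5, Slc3a2, Slc6a6, Slc6a12, Slc6a15, Slc7a1, Slc7a2, Slc7a5, Slc7a6, Slc7a11, Slc36a1, Slc38a1 and Slc38a4) and 3 lower (Slc6a8, Slc7a3 and Slc7a4). The background in female cells was 39.3%, with 20.7% of genes higher and 18.6% lower. The male share, and the female share over both directions, thus lay near the background, while the female calls divided 13 to 3 where those of all genes divided 2884 to 2585.

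The changes were small in fold, but by the median not smaller than those of all genes. Without regard to sign, the median log2 fold change in male cells was 0.156 for the 35 members and 0.0936 over all genes. In female cells these medians were 0.146 and 0.136. With sign, the median of the members was -0.034 in male cells, against 0.000207 over all genes, and 0.044 in female cells, against 0.000143. No member was called with a change of at least 2-fold in either sex, where 1.01% of all genes in male and 2.12% in female cells were. At 1.25-fold or more, 1 of 35 members was called in male cells (background 7.62%) and 8 of 35 in female cells (background 15%). KO and WT libraries did not overlap for 9 of 35 members in male cells (background 27.6%) and for 15 in female cells (background 36.1%). Without male KO library 3, 1 member was called higher in male cells in place of 3. With scaling to library size only, the female calls over all genes divided 2288 higher to 3441 lower, and those of the members 11 to 3.

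**Figure D2:**
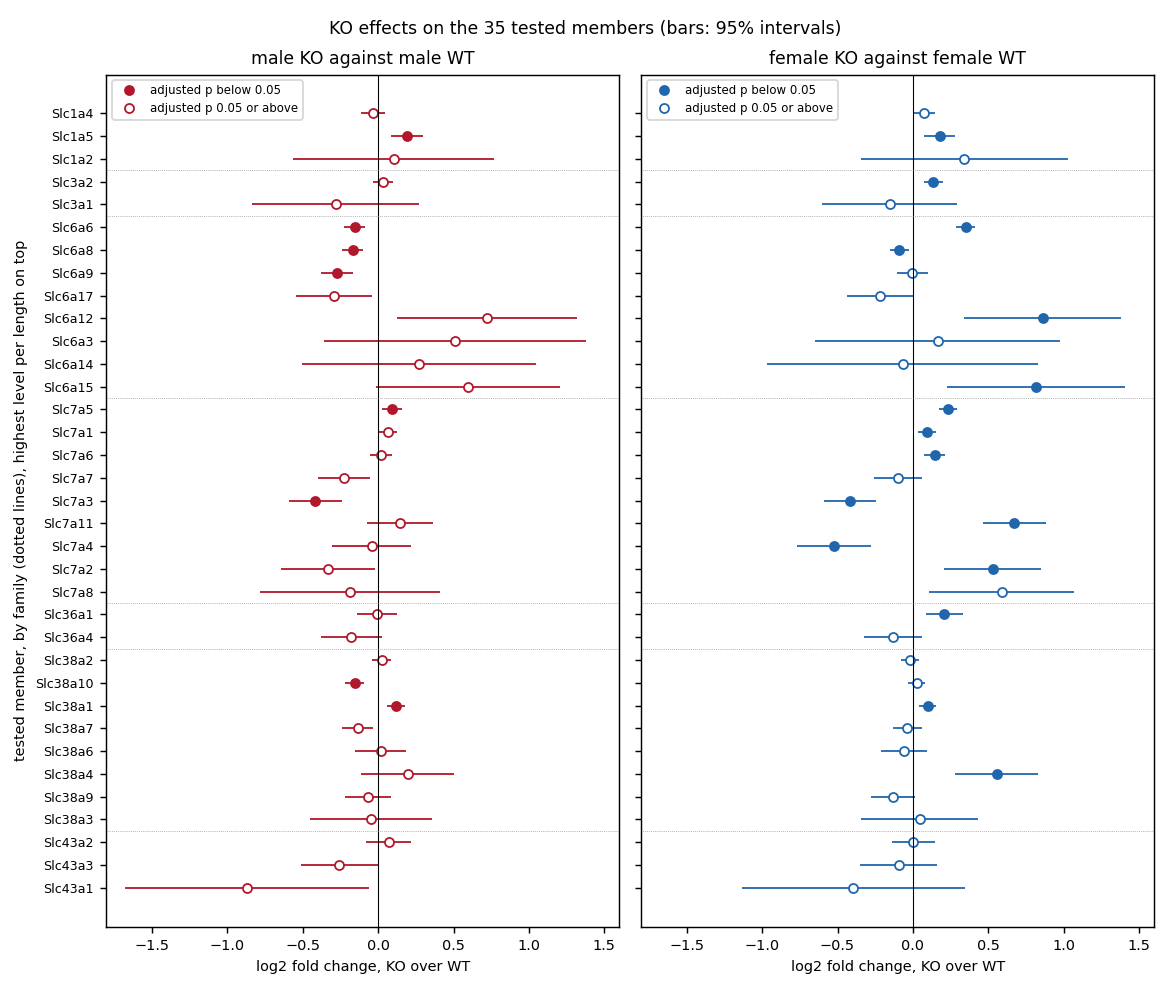
Log2 fold change of KO over WT in male (left) and female (right) cells for the 35 tested members, by family, with bars of 95% intervals; filled points have an adjusted p below 0.05. Filled points lie on both sides of 0 in male cells (3 right, 5 left) and mostly to the right in female cells (13 right, 3 left).

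Among the exchangers built on Slc3a2, the heavy chain and 3 of its 5 tested light chains (Slc7a5, Slc7a6 and Slc7a11) were higher in female KO cells, and Slc7a5 alone was called in male cells. Slc3a2 had 161, 152, 151 and 157 CPM in the female KO libraries, against 143, 140.4, 142 and 139 CPM in the female WT libraries (gene at chr19:8706882-8723369, mm10). All 4 KO libraries lay above all WT libraries, a log2 fold change of 0.13 ± 0.032, edgeR adjusted p = 0.000844 (± gives the SE of fold changes throughout). In male cells the libraries overlapped, with 154 ± 2.99 CPM in male KO and 149.9 ± 6.69 CPM in male WT cells (SD; log2 fold change 0.035 ± 0.034, edgeR adjusted p = 0.532).

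Slc7a5 had 138, 140.3, 133 and 139 CPM in the female KO libraries, against 119, 118, 113 and 119 CPM in the female WT libraries (gene at chr8:121881150-121907694). Slc7a5 had 131, 135 and 133 CPM in the male KO libraries, against 129, 120.2, 123 and 125 CPM in the male WT libraries. KO libraries lay above WT libraries in both sexes. The level differed by 17.2% (95% interval 12.5% to 22.2%) in female cells (log2 fold change 0.23 ± 0.031, edgeR adjusted p = 1.84e-07) and by 6.59% (95% interval 1.95% to 11.4%) in male cells (0.092 ± 0.033, edgeR adjusted p = 0.0432). The male call was lost in 12 of 24 alternatives, among them without male WT library 2, 3 or 4, male KO library 2 or 3 or female WT library 1 or 2 (adjusted p between 0.0504 and 0.133).

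Slc7a6 averaged 76.2 ± 2.20 CPM in female KO and 68.9 ± 1.96 CPM in female WT cells (SD; log2 fold change 0.15 ± 0.036, edgeR adjusted p = 0.00126), without overlap, and 77.5 ± 1.51 CPM in male KO and 76.6 ± 2.45 CPM in male WT cells, with overlap (0.019 ± 0.038, edgeR adjusted p = 0.789). Slc7a7, the basolateral exchanger whose loss gives lysinuric protein intolerance in humans, was not called in either sex, at 11.9 ± 0.948 CPM in male KO and 13.9 ± 1.08 CPM in male WT cells (log2 fold change -0.22 ± 0.088, edgeR adjusted p = 0.0695) and 12.7 ± 0.732 CPM in female KO and 13.6 ± 1.55 CPM in female WT cells (-0.097 ± 0.081, edgeR adjusted p = 0.364). Its male difference passed the threshold without male WT library 3 (adjusted p = 0.0281). Slc7a7 shares 6.998% of its exon bases with Oxa1l on the other strand. Slc7a8 had only 1.37 CPM in female KO and 0.925 CPM in female WT cells, and its difference was not called (log2 fold change 0.59 ± 0.25, edgeR adjusted p = 0.0556). It passed the threshold with limma-voom, with the replicate number as a block and without female WT library 1 or female KO library 3 (adjusted p between 0.0160 and 0.0436). In male cells it had 0.720 CPM in KO and 0.816 CPM in WT (-0.19 ± 0.30, edgeR adjusted p = 0.733). The heavy chain Slc3a1 was not called either, with -0.28 ± 0.28, edgeR adjusted p = 0.551 in male and -0.15 ± 0.23, edgeR adjusted p = 0.628 in female cells.

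Slc7a11, the light chain that brings in cystine in exchange for glutamate and so feeds glutathione synthesis, had the largest fold in female cells among detected members (gene at chr3:49892526-50443614). Slc7a11 had 19.2, 21.0, 22.3 and 22.9 CPM in the female KO libraries, against 11.8, 13.2, 14.4 and 14.2 CPM in the female WT libraries. Slc7a11 had 19.0, 18.2 and 22.6 CPM in the male KO libraries, against 15.2, 17.5, 22.4 and 17.2 CPM in the male WT libraries. The female KO libraries all lay above the female WT libraries, and the male groups overlapped. The fold change was 0.67 ± 0.11, edgeR adjusted p = 5.12e-05 in female cells, a difference of 59.2% (95% interval 37.6% to 84.1%), and 0.15 ± 0.11, edgeR adjusted p = 0.411 in male cells. The male difference passed the threshold without male WT library 3 (adjusted p = 0.0221).

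Promoter windows of RefSeq (GRCm38.p6) were at hand for 41 of the 59 members, 24 of them tested. The composite C/EBP and ATF response element, known as a binding site of ATF4 in genes induced by amino acid shortage, was searched as TGATGNAA on both strands, over windows of 250 bases before to 50 after each start. It was present in 3.97% of all 32851 windows and in 4.51% of the 27025 genes with a window. Among the 41 members it was present in 3, Slc7a11, Slc1a4 and Slc7a7. The following windows of these 3 members, from 250 bases before to 10 after the start and all on the minus strand, show where the motif lies (capitals mark the matches). They are Slc7a11 at chr3:50443604-50443863, Slc1a4 at chr11:20332704-20332963 and, for the start of Slc7a7 with the most matches, chr14:54417935-54418194.
Slc7a11: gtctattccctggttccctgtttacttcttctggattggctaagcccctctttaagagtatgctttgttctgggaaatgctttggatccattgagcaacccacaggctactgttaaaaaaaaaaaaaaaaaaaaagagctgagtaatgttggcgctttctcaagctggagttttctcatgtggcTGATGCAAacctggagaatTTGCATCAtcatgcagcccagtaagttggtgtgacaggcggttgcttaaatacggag
Slc1a4: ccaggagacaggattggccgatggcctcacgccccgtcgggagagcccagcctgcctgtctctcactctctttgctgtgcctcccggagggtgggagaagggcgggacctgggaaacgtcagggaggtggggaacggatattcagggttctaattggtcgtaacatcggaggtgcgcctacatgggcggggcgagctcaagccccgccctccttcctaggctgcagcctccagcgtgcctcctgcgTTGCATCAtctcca
Slc7a7: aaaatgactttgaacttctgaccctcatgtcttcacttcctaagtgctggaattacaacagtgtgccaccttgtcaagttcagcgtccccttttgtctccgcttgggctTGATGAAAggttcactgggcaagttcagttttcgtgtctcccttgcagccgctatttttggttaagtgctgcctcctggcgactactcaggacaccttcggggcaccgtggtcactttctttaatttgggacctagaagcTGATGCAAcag

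Counting from the start with no position 0, the Slc7a11 window held a match at -66 to -59 on its own strand and a match at -47 to -40 on the other strand, so that they face each other. Slc1a4 held 1 match on the other strand at -4 to 4, across the start, and this Slc7a7 window held matches at -141 to -134 and at -1 to 7. Of these 3 members, Slc7a11 alone was called, in female cells. The antioxidant response element, searched as TGACNNNGC on both strands, was in 12.4% of windows and in 13.99% of genes with a window. It was in 8 of the 41 members with a window, among them Slc6a11 and Slc6a13, which were not tested. The other 6 were tested (Slc6a9, Slc7a1, Slc7a6, Slc36a1, Slc38a2 and Slc43a1). Of these 6, Slc7a1, Slc7a6 and Slc36a1 were called higher in female cells, Slc6a9 was called lower in male cells, and Slc38a2 and Slc43a1 were not called. It was in none of the windows of Slc7a11, Slc1a4 and Slc7a7, and a match describes letters, not binding.

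The carriers of cationic amino acids moved in different directions. Slc7a3 was lower in KO cells of both sexes, and Slc7a1 and Slc7a2 were higher in female KO cells. Their relative Slc7a4 was lower in female KO cells. Slc7a3 had 9.48, 9.25 and 8.88 CPM in the male KO libraries, against 11.5, 14.2, 12.6 and 11.05 CPM in the male WT libraries (gene at chrX:101079210-101086020). Slc7a3 had 6.68, 7.89, 7.11 and 7.42 CPM in the female KO libraries, against 9.83, 9.79, 9.81 and 9.48 CPM in the female WT libraries. No KO library reached a WT library of its sex, and the difference was -25.0% (95% interval -33.5% to -15.4%) in male and -25.0% (95% interval -33.4% to -15.4%) in female cells. The log2 fold changes were -0.41 ± 0.088, edgeR adjusted p = 0.000613 in male and -0.41 ± 0.088, edgeR adjusted p = 0.000270 in female cells.

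Slc7a1, the cationic carrier at by far the highest level per length in these cells, averaged 292 ± 9.71 CPM in female KO and 274 ± 2.72 CPM in female WT cells (SD; log2 fold change 0.092 ± 0.029, edgeR adjusted p = 0.0126). This call was lost with scaling to library size only and without female KO library 3 or 4 (adjusted p between 0.0559 and 0.146). In male cells the groups overlapped (0.067 ± 0.032, edgeR adjusted p = 0.142). Slc7a2 had 3.54, 3.09, 2.95 and 3.06 CPM in the female KO libraries, against 2.08, 2.82, 2.15 and 1.78 CPM in the female WT libraries, which is low but without overlap (gene at chr8:40862396-40922308; log2 fold change 0.53 ± 0.16, edgeR adjusted p = 0.00967). This call was lost without female WT library 4 (adjusted p = 0.0545). Slc7a2 had 3.16, 2.49 and 3.33 CPM in the male KO libraries, against 4.04, 2.83, 3.67 and 4.48 CPM in the male WT libraries, with overlap and not called (-0.33 ± 0.16, edgeR adjusted p = 0.149). Slc7a4, a relative for which no transport of its own is established, averaged 3.67 ± 0.557 CPM in female KO and 5.30 ± 0.649 CPM in female WT cells (-0.52 ± 0.13, edgeR adjusted p = 0.00105) and 4.38 ± 0.634 CPM in male KO and 4.51 ± 0.235 CPM in male WT cells (-0.041 ± 0.13, edgeR adjusted p = 0.875). In Slc7a4, 13.3% of exon bases overlap P2rx6 on the other strand.

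In the Slc6 family, carriers of taurine, creatine and glycine were the 3 highest members, and each was lower in male KO cells. Slc6a6, which brings in the osmolyte taurine (gene at chr6:91684053-91759066), moved in opposite directions in the sexes. Slc6a6 had 352, 351 and 355 CPM in the male KO libraries, against 377, 387, 413 and 394 CPM in the male WT libraries. Slc6a6 had 350.3, 379, 353 and 367 CPM in the female KO libraries, against 272, 275, 286 and 304 CPM in the female WT libraries. In males all KO libraries lay below all WT libraries and in females all KO libraries lay above. The difference was -10.2% (95% interval -14.4% to -5.83%) in male cells (log2 fold change -0.16 ± 0.035, edgeR adjusted p = 0.00139) and 27.4% (95% interval 21.8% to 33.2%) in female cells (0.35 ± 0.033, edgeR adjusted p = 3.05e-10), and both calls held in every alternative run.

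Slc6a8, the creatine carrier (gene at chrX:73673150-73682502), was lower in KO cells of both sexes. Slc6a8 had 94.5, 93.1 and 93.0 CPM in the male KO libraries, against 103, 104, 105 and 107 CPM in the male WT libraries, without overlap. Slc6a8 had 93.5, 90.3, 88.6 and 87.4 CPM in the female KO libraries, against 100.2, 94.3, 91.4 and 96.6 CPM in the female WT libraries, with overlap. The log2 fold changes were -0.17 ± 0.035, edgeR adjusted p = 0.000613 in male and -0.090 ± 0.033, edgeR adjusted p = 0.0306 in female cells. The female call was lost without female WT library 1 or 4 or female KO library 3 or 4 (adjusted p between 0.0644 and 0.139).

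Slc6a9, the glycine carrier (gene at chr4:117834506-117875198), was lower in male KO cells. Slc6a9 had 28.4, 27.0 and 25.8 CPM in the male KO libraries, against 31.3, 33.5, 33.0 and 33.0 CPM in the male WT libraries. The groups did not overlap (log2 fold change -0.27 ± 0.054, edgeR adjusted p = 0.000274). In female cells KO and WT were level, at 26.8 ± 1.13 CPM in female KO and 26.8 ± 1.05 CPM in female WT cells (-0.0039 ± 0.051, edgeR adjusted p = 0.962). Slc6a9 shares 27.8% of its exon bases with Ccdc24 on the other strand, so its counts carry the limit given above for Slc3a1.

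Slc6a12, a carrier of betaine and GABA that is induced by high salt in the kidney medulla, and Slc6a15, a carrier of branched-chain amino acids and proline, lay below detection but passed the count filter. Slc6a12 had 0.970, 1.40, 1.43 and 0.855 CPM in the female KO libraries, against 0.659, 0.479, 0.683 and 0.714 CPM in the female WT libraries (log2 fold change 0.86 ± 0.27, edgeR adjusted p = 0.00975). Slc6a12 had 1.04, 0.728 and 0.971 CPM in the male KO libraries, against 0.388, 0.555, 0.727 and 0.587 CPM in the male WT libraries (0.72 ± 0.30, edgeR adjusted p = 0.0946). KO libraries lay above WT libraries in both sexes, and the female difference was called. Slc6a15 averaged 0.822 ± 0.0826 CPM in female KO and 0.473 ± 0.134 CPM in female WT cells (0.82 ± 0.30, edgeR adjusted p = 0.0292). This call was lost in 7 of 23 alternatives, among them without female WT library 1 or 4 or female KO library 1, 3 or 4 (adjusted p between 0.0526 and 0.117). Its male groups overlapped (0.60 ± 0.31, edgeR adjusted p = 0.187). Slc6a17, Slc6a14 and Slc6a3 were not called in either sex, and estimates for them ranged from -0.29 to 0.51. The male difference of Slc6a17 passed the threshold without male WT library 1 (adjusted p = 0.0337). Its female difference passed the threshold without female WT library 3 (adjusted p = 0.0406).

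**Figure D3:**
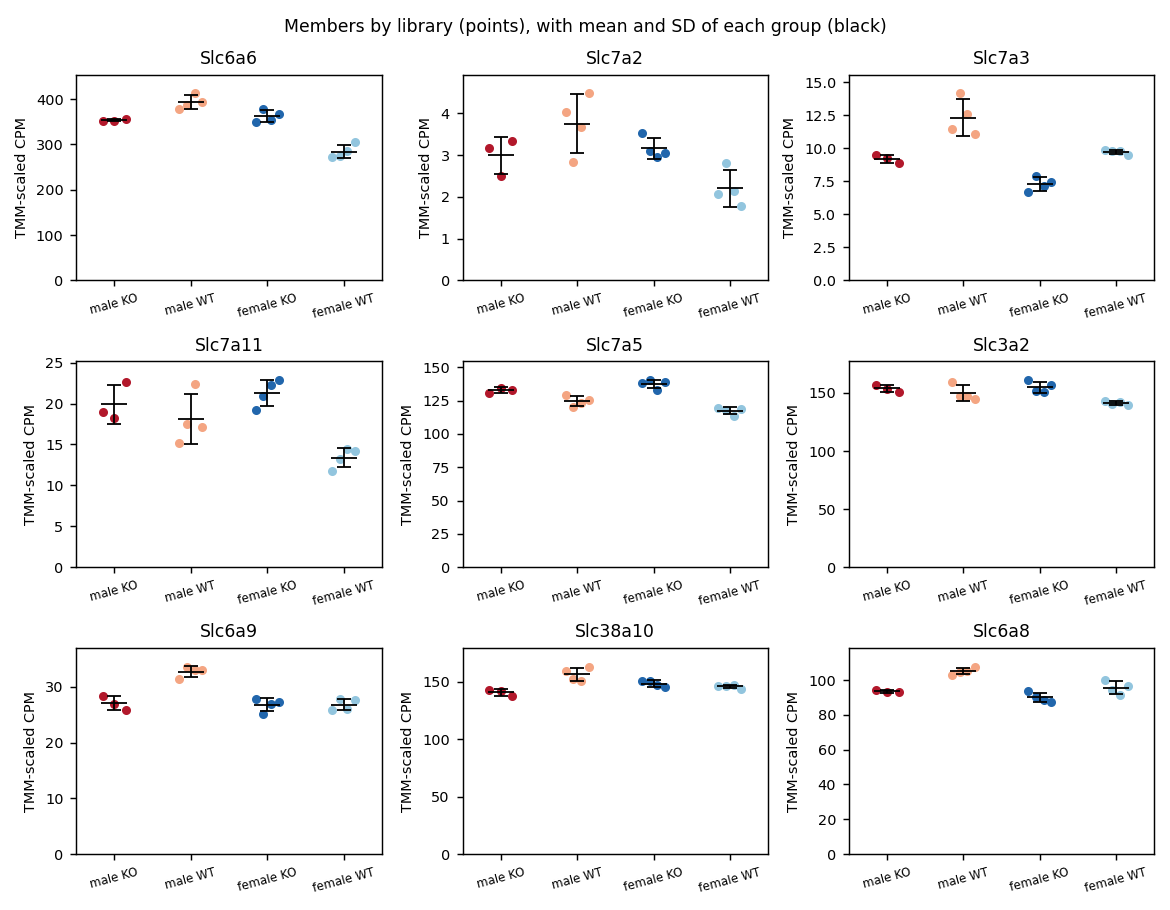
TMM-scaled CPM of 9 members in each library (points) with the mean and SD of each group (black), KO left of WT within each sex, vertical axes from 0. Slc6a6 is lower in male KO than in male WT and higher in female KO than in female WT, Slc7a3 is lower in KO of both sexes, and Slc7a11 is higher in female KO, where its libraries do not overlap with female WT.

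In the Slc1 family, Slc1a5, the main glutamine carrier of dividing cells (gene at chr7:16781340-16798274), was higher in KO cells of both sexes. Slc1a5 had 41.4, 37.5 and 36.7 CPM in the male KO libraries, against 36.1, 32.6, 32.7 and 33.0 CPM in the male WT libraries. Slc1a5 had 31.1, 31.3, 32.6 and 33.5 CPM in the female KO libraries, against 30.1, 28.7, 27.7 and 27.5 CPM in the female WT libraries. No KO library overlapped a WT library of its sex. The log2 fold changes were 0.19 ± 0.053, edgeR adjusted p = 0.00906 in male and 0.18 ± 0.052, edgeR adjusted p = 0.00684 in female cells. The male call was lost without male KO library 1 (adjusted p = 0.102). Slc1a4, which carries serine and alanine, was not called, at 68.8 ± 1.25 CPM in male KO and 70.6 ± 1.93 CPM in male WT cells (-0.034 ± 0.041, edgeR adjusted p = 0.630) and 76.2 ± 2.10 CPM in female KO and 72.3 ± 3.89 CPM in female WT cells (0.073 ± 0.038, edgeR adjusted p = 0.125). Its female difference passed the threshold without female WT library 4 (adjusted p = 0.0403). Slc1a2, a glutamate carrier best known from astrocytes, was near 0 and not called.

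Of the sodium-coupled Slc38 carriers, Slc38a1 was higher in KO cells of both sexes, Slc38a4 was higher in female and Slc38a10 lower in male KO cells. Slc38a1 had 235, 236 and 246 CPM in the male KO libraries, against 211, 219.6, 227 and 223 CPM in the male WT libraries (gene at chr15:96571418-96642913). Slc38a1 had 226, 233, 242 and 240.1 CPM in the female KO libraries, against 224, 218, 217 and 221 CPM in the female WT libraries. The groups did not overlap in either sex, and the log2 fold changes were 0.12 ± 0.031, edgeR adjusted p = 0.00441 in male and 0.097 ± 0.029, edgeR adjusted p = 0.00699 in female cells. The male call was lost without male KO library 3 (adjusted p = 0.0580). The female call was lost with scaling to library size only (adjusted p = 0.0987). Slc38a2, the close relative that cells induce when amino acids run short and the member at the highest level per length, was not called, at 465 ± 5.58 CPM in male KO and 457 ± 15.6 CPM in male WT cells (0.023 ± 0.033, edgeR adjusted p = 0.687) and 464 ± 26.0 CPM in female KO and 471 ± 6.20 CPM in female WT cells (-0.020 ± 0.031, edgeR adjusted p = 0.639).

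Slc38a10 had 143, 142 and 137 CPM in the male KO libraries, against 159, 153, 151 and 163 CPM in the male WT libraries (gene at chr11:120103960-120151346). KO libraries of this member, whose role is less well known, lay below WT libraries (log2 fold change -0.15 ± 0.032, edgeR adjusted p = 0.000425). In female cells Slc38a10 averaged 148 ± 2.78 CPM in female KO and 146 ± 1.52 CPM in female WT cells, with overlap (0.024 ± 0.030, edgeR adjusted p = 0.558). Slc38a4 averaged 5.21 ± 0.410 CPM in female KO and 3.52 ± 0.199 CPM in female WT cells (0.55 ± 0.14, edgeR adjusted p = 0.00192), without overlap, and 4.16 ± 1.15 CPM in male KO and 3.70 ± 0.758 CPM in male WT cells (0.20 ± 0.16, edgeR adjusted p = 0.430), with overlap. Slc38a3, the basolateral glutamine carrier that the kidney induces in acidosis, stood at 1.67 and 1.68 CPM in male KO and WT cells and 1.65 and 1.58 CPM in female KO and WT cells and was not called (-0.048 ± 0.21, edgeR adjusted p = 0.908 and 0.044 ± 0.20, edgeR adjusted p = 0.883). Slc38a6 was not called (log2 fold changes 0.016 ± 0.086 and -0.061 ± 0.078).

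Among carriers of the lysosomal membrane, Slc36a1 was called and Slc38a7 and Slc38a9 were not. Slc36a1, which exports small amino acids with protons, averaged 19.8 ± 1.2997 CPM in female KO and 17.1 ± 0.651 CPM in female WT cells (SD; log2 fold change 0.21 ± 0.062, edgeR adjusted p = 0.00718), without overlap, and 17.4 ± 0.487 CPM in male KO and 17.5 ± 0.804 CPM in male WT cells (-0.0090 ± 0.067, edgeR adjusted p = 0.946). Slc38a9, the arginine sensor that passes lysosomal supply on to mTORC1, averaged 15.5 ± 1.33 CPM in male KO and 16.3 ± 0.931 CPM in male WT cells (-0.068 ± 0.078, edgeR adjusted p = 0.606) and 14.5 ± 1.05 CPM in female KO and 15.8 ± 1.09 CPM in female WT cells (-0.13 ± 0.073, edgeR adjusted p = 0.151). Slc38a7, a lysosomal glutamine exporter, had log2 fold changes of -0.14 ± 0.053, edgeR adjusted p = 0.0694 in male and -0.039 ± 0.049, edgeR adjusted p = 0.564 in female cells. The male difference passed the threshold without male WT library 2 or 3 or male KO library 1 (adjusted p between 0.0315 and 0.0486). Slc36a4 was not called (-0.18 ± 0.10 and -0.13 ± 0.097). None of the 3 tested Slc43 members was called, and Slc43a2 averaged 23.5 ± 2.71 CPM in male KO and 22.5 ± 0.861 CPM in male WT cells (0.070 ± 0.077, edgeR adjusted p = 0.589) and 21.8 ± 2.21 CPM in female KO and 21.9 ± 1.74 CPM in female WT cells (0.00095 ± 0.073, edgeR adjusted p = 0.994).

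The difference between the KO effects of the 2 sexes was tested in the same fit, as male minus female log2 fold change. It was called for 6 of 35 members, against 15.6% of all genes tested, and in all 6 the male value was the lower. Over all genes, calls with DESeq2 size factors divided 863 with the male value higher to 1314 with it lower. With scaling to library size only they divided 1272 to 1095. Slc6a6 differed by -0.50 ± 0.048, edgeR adjusted p = 4.06e-09, Slc38a10 by -0.18 ± 0.043, edgeR adjusted p = 0.00328, Slc7a2 by -0.86 ± 0.23, edgeR adjusted p = 0.00709 and Slc6a9 by -0.27 ± 0.075, edgeR adjusted p = 0.0106. Slc7a11 differed by -0.52 ± 0.15, edgeR adjusted p = 0.0248 and Slc7a5 by -0.14 ± 0.045, edgeR adjusted p = 0.0319. The Slc7a11 call was lost in 7 of 23 alternatives, among them without male KO library 1 or 2, female WT library 1 or 2 or female KO library 3 or 4 (adjusted p between 0.0502 and 0.0817). The Slc7a5 call was lost in 11 of 23 alternatives, among them without male WT library 1 or 4, male KO library 1 or 3, female WT library 3 or female KO library 1, 2 or 4 (adjusted p between 0.0513 and 0.138). For 8 further members called in 1 sex only (Slc3a2, Slc6a12, Slc6a15, Slc7a1, Slc7a4, Slc7a6, Slc36a1 and Slc38a4), the difference between the sexes was not called. That of Slc7a4 passed the threshold with scaling to library size only and without male KO library 1, female WT library 2 or female KO library 3 (adjusted p between 0.0320 and 0.0470).

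Across both sexes, 3 members were called higher in both (Slc1a5, Slc38a1 and Slc7a5; background 7.38%), 2 lower in both (Slc7a3 and Slc6a8; background 5.01%) and 1 in opposite directions (Slc6a6; background 1.55%), while 17 were called in neither. Both members that were lower in KO cells of both sexes, Slc7a3 and Slc6a8, lie on chromosome X, as does 1 other tested member, Slc6a14 (a remark made after the values were seen). The share of chromosome X among all genes lower in both sexes was not computed. The female Slc6a8 call was also lost in some alternatives, as given above. For Slc6a6 the KO pools of both sexes lay close together, at 353 ± 2.20 CPM in male and 362 ± 13.3 CPM in female cells, while the WT pools stood at 393 ± 15.02 CPM in male and 284 ± 14.7 CPM in female cells. Both KO means of Slc6a6 thus lay between the WT means. Slc7a11 averaged 19.9 ± 2.36 and 21.3 ± 1.61 CPM in male and female KO cells, and 18.1 ± 3.04 and 13.4 ± 1.19 CPM in male and female WT cells (SD), with both KO means above both WT means. Male and female WT cells were not tested against each other.

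**Figure D4:**
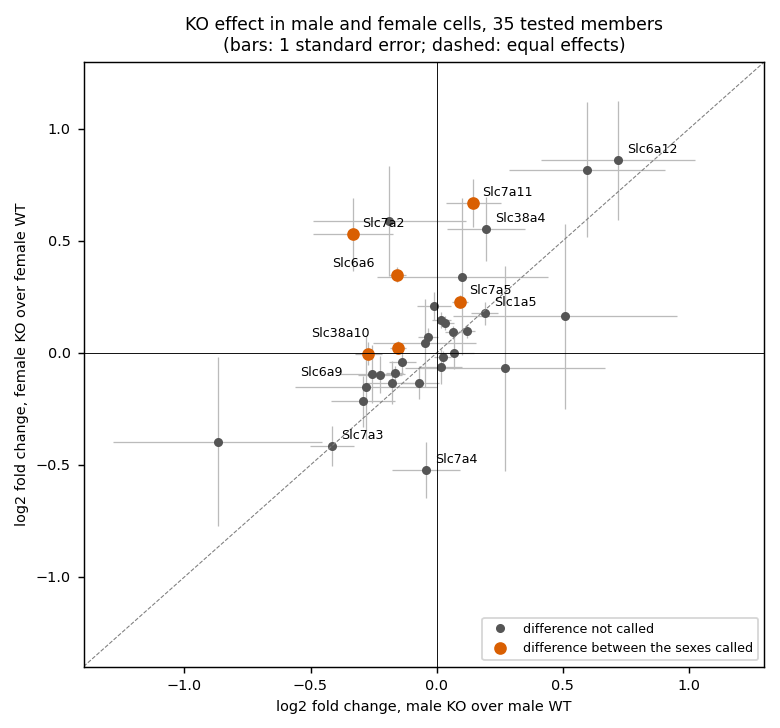
Log2 fold change of KO over WT in female cells (vertical) against male cells (horizontal) for the 35 tested members, with bars of 1 standard error; coloured points are the 6 members whose effects differ between the sexes. All 6 lie above the diagonal, and Slc6a6 lies left of 0 and above 0.

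Since each group is 1 pool, the libraries of a group were also summed and the 4 sums tested for KO with sex as a covariate, which leaves 1 residual degree of freedom. No member was called by edgeR in this fit, and over all genes 1 of 13912 was (0.00719%). At an unadjusted p below 0.05 there were 7 members (Slc1a5, Slc6a8, Slc6a12, Slc6a15, Slc7a3, Slc7a5 and Slc7a11) and 2510 of all genes, which is 18.04%. The smallest adjusted p of a member was 0.154, for Slc7a3. The calls above thus hold against the spread between technical replicates. With 1 pool per group, the residual of the summed fit is the difference between the KO effects of the sexes. The spread between pools of a group was therefore not measured, and a member with opposite effects in the sexes could hardly pass this fit.

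Of 10 tested partners and regulators of the carriers, 2 were higher and 2 lower in male KO cells (median log2 fold change 0.016) and 3 higher and 4 lower in female KO cells (-0.042), to be read, as are the lists below, against the shares and medians over all genes given above. Tmem27 (collectrin), which brings Slc6a19 and its relatives to the brush border, was low and fell in female KO cells. Tmem27 averaged 0.0744 ± 0.0635 CPM in female KO and 0.527 ± 0.0530 CPM in female WT cells (SD; edgeR adjusted p = 0.000155; no fold is given, as the female KO mean is under the floor of 3 counts), and 0.345 ± 0.0881 CPM in male KO and 0.692 ± 0.309 CPM in male WT cells (log2 fold change -0.997 ± 0.40, edgeR adjusted p = 0.0761). The male difference passed the threshold with the replicate number as a block and without male WT library 3 or 4 (adjusted p between 0.0385 and 0.0497).

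Sgk1, a kinase that raises the surface level of several carriers, averaged 96.9 ± 0.524 CPM in male KO and 123 ± 7.47 CPM in male WT cells (-0.35 ± 0.040, edgeR adjusted p = 2.55e-08) and 105 ± 3.91 CPM in female KO and 82.5 ± 2.12 CPM in female WT cells (0.34 ± 0.038, edgeR adjusted p = 3.78e-09). It thus fell in male and rose in female KO cells, the directions also seen for Slc6a6, and its male minus female difference was -0.69 ± 0.055, edgeR adjusted p = 4.15e-11. Nedd4l, a ubiquitin ligase that removes carriers from the membrane, had log2 fold changes of 0.12 ± 0.042, edgeR adjusted p = 0.0381 in male and -0.20 ± 0.039, edgeR adjusted p = 0.000123 in female cells. The male call was lost in 8 of 24 alternatives, among them without male WT library 1, 3 or 4 or male KO library 2 or 3 (adjusted p between 0.0526 and 0.287). Cd44, which associates with the light chain Slc7a11, rose in female KO cells (0.78 ± 0.065, edgeR adjusted p = 5.21e-07), and Slc9a3r1, a scaffold of the brush border, rose in male KO cells (0.19 ± 0.032, edgeR adjusted p = 2.06e-05).

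Of 15 tested amino acid carriers outside the 7 families, 1 was higher in male KO cells (Sfxn1, a mitochondrial serine carrier, 0.12 ± 0.040, edgeR adjusted p = 0.0257). In female KO cells Slc25a22, a mitochondrial glutamate carrier, was higher (0.16 ± 0.063, edgeR adjusted p = 0.0467), and Slc16a10, a carrier of aromatic amino acids, and Ctns, the lysosomal cystine exporter, were lower (-0.22 ± 0.069, edgeR adjusted p = 0.0102 and -0.21 ± 0.052, edgeR adjusted p = 0.00120). The medians were 0.033 in male and 0.0055 in female cells. The Sfxn1 call was lost without male WT library 4 or male KO library 2 or 3 (adjusted p between 0.0596 and 0.132). The Slc25a22 call was lost in 17 of 24 alternatives, among them without male WT library 2 or 4, male KO library 1, 2 or 3, female WT library 3 or 4 or female KO library 1, 2 or 4 (adjusted p between 0.0511 and 0.234).

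Of 31 tested genes of amino acid sensing by mTORC1, 1 was higher and 1 lower in male KO cells and 5 were higher and 7 lower in female KO cells, with medians of -0.0050 and -0.073. Sesn3, of the sestrin family of leucine sensors, was higher in both sexes, by 0.12 ± 0.043, edgeR adjusted p = 0.0427 in male and 0.34 ± 0.040, edgeR adjusted p = 2.55e-08 in female cells. Gatsl3, the arginine sensor also named Castor1, was higher in female KO cells (0.27 ± 0.083, edgeR adjusted p = 0.00908). Rragb, a Rag GTPase, and Nprl2, of the GATOR1 complex, were lower there (-0.62 ± 0.19, edgeR adjusted p = 0.00805 and -0.31 ± 0.074, edgeR adjusted p = 0.00107), and Mtor was lower in male KO cells (-0.11 ± 0.038, edgeR adjusted p = 0.0407). The male Sesn3 call was lost in 12 of 24 alternatives, among them without male WT library 1 or 2, male KO library 1, 2 or 3, female WT library 1, 2 or 4 or female KO library 2 (adjusted p between 0.0517 and 0.202). The Mtor call was lost in 8 of 24 alternatives, among them without male WT library 2, 3 or 4, male KO library 1, 2 or 3 or female KO library 3 (adjusted p between 0.0516 and 0.170). The Gatsl3 call was lost without female WT library 2 (adjusted p = 0.0538).

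Of 30 tested genes of the ATF4 response to amino acid shortage, 5 were higher and 4 lower in male KO cells (median 0.024), and 16 were higher and 4 lower in female KO cells (median 0.098). Over all genes tested the shares were 10.1% higher and 10.1% lower in male and 20.7% higher and 18.6% lower in female cells. The largest female rises were those of Shmt2, a mitochondrial serine enzyme (0.39 ± 0.034, edgeR adjusted p = 1.42e-11), and Wars, the tryptophan tRNA synthetase (0.39 ± 0.032, edgeR adjusted p = 4.87e-12). Cebpb, a transcription factor, and Cth, which makes cysteine, were lower (-0.50 ± 0.18, edgeR adjusted p = 0.0411 and -0.38 ± 0.061, edgeR adjusted p = 4.62e-06). In male KO cells Phgdh and Mthfd2, of the serine and folate pathways, were higher (0.21 ± 0.032, edgeR adjusted p = 5.27e-06 and 0.12 ± 0.033, edgeR adjusted p = 0.0110), and Nupr1 and Pycr1, a proline enzyme, were lower (-0.45 ± 0.072, edgeR adjusted p = 0.000517 and -0.25 ± 0.087, edgeR adjusted p = 0.0350). The Cebpb call was lost in 9 of 24 alternatives, among them without male WT library 4, female WT library 1, 2, 3 or 4 or female KO library 3 or 4 (adjusted p between 0.0519 and 0.108). The male Mthfd2 call was lost without male KO library 3 (adjusted p = 0.0520). The Pycr1 call was lost in 5 of 24 alternatives, namely without male WT library 1, 3 or 4 or male KO library 1 or 3 (adjusted p between 0.0540 and 0.213).

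Of 12 tested genes of glutathione and cystine use, none was higher and 2 were lower in male KO cells (medians -0.0017 in male and -0.052 in female cells), and 2 were higher and 3 lower in female KO cells. Ggt1, the brush border enzyme that breaks down extracellular glutathione, averaged 37.0 ± 1.12 CPM in male KO and 47.7 ± 2.38 CPM in male WT cells (-0.37 ± 0.063, edgeR adjusted p = 8.12e-05) and 35.5 ± 1.42 CPM in female KO and 68.7 ± 7.07 CPM in female WT cells (-0.95 ± 0.057, edgeR adjusted p = 2.14e-13). Cth was lower in male KO cells (-0.18 ± 0.065, edgeR adjusted p = 0.0494), and Cbs, which acts one step before it, in female KO cells (-0.39 ± 0.12, edgeR adjusted p = 0.0114). Txnrd1, a thioredoxin reductase, and Gss, glutathione synthetase, were higher in female KO cells (0.21 ± 0.028, edgeR adjusted p = 1.26e-07 and 0.13 ± 0.054, edgeR adjusted p = 0.0463). The male Cth call was lost in 17 of 24 alternatives, among them without male WT library 1, 2 or 3, male KO library 1 or 2, female WT library 1, 2 or 4 or female KO library 1, 2, 3 or 4 (adjusted p between 0.0503 and 0.241). The Gss call was lost in 19 of 24 alternatives, among them without male WT library 2 or 4, male KO library 1, 2 or 3, female WT library 1, 3 or 4 or female KO library 1, 2 or 3 (adjusted p between 0.0503 and 0.214).

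Markers of other cell types moved with the groups. In male KO cells 9 of 10 endothelial markers were lower, with summed levels of 40.1 to 45.0 CPM in KO and 84.9 to 91.5 CPM in WT libraries, and 7 of 9 tested fibroblast markers were lower, at 1849 to 2042 CPM in KO and 3525 to 3766 CPM in WT libraries. In female KO cells 5 of 9 fibroblast markers were lower and 2 higher, at 2611 to 2843 CPM in KO and 3629 to 3910.3 CPM in WT libraries, and 2 of 10 endothelial markers were higher, at 39.0 to 50.6 and 34.9 to 41.8 CPM in KO and WT libraries. In each sex 4 of 8 tested leukocyte markers were higher, at 32.1 to 34.9 CPM in male KO and 21.6 to 26.1 CPM in male WT libraries, and 45.6 to 56.8 CPM in female KO and 35.1 to 41.6 CPM in female WT libraries. No listed marker of these types was at 0 in all libraries. Their part in the differences of the carriers was not tested, and fewer cells of a type and less RNA per cell cannot be told apart in these samples.

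Of 7 podocyte markers, 2 were lower in male KO cells (399.95 to 438 CPM in KO and 472 to 497 CPM in WT libraries), and 3 were higher and 1 lower in female KO cells (317 to 358 and 305 to 320.0 CPM in KO and WT libraries). Of 7 tested distal nephron markers, 1 was higher and 1 lower in male KO cells, and 1 was higher and 4 lower in female KO cells. The median log2 fold changes of these 7 were -0.41 in male and -1.41 in female cells. Of all 12 listed distal nephron markers, 3 reached 1 CPM in every library. Summed over the 12, levels were 1457 to 1489 CPM in male KO and 1115 to 1255 CPM in male WT libraries. They were 1321 to 1378 CPM in female KO and 1105 to 1136 CPM in female WT libraries. The sums were thus higher in KO while the medians were negative. Of the 2 tested neural markers, 1 was higher in female KO cells. Of the 14 tested proximal tubule markers, 2 were higher and 2 lower in male KO cells and 3 higher and 4 lower in female KO cells, with sums of 364 to 386 CPM in male KO, 359.7 to 380.3 CPM in male WT, 369 to 410.3 CPM in female KO and 431 to 445 CPM in female WT libraries. The part of these types was not tested either.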

How the data were processed

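RNA of 15 samples was sequenced from strand-specific mRNA libraries (NuGEN kit), per the labels. The count table deposited by the authors gives whole numbers of reads for each symbol. STAR 2.6.1, featureCounts and mm10 are named in the submitters' processing notes, and the annotation and strand setting are not given in the sources used here. A table of CPM values was also deposited by the authors, used here only to check that they equal the counts divided by library totals.

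Counts were fitted in R 4.3.3 with edgeR 4.0.16 (TMM scaling, robust quasi-likelihood test, a gene kept by filterByExpr with a minimum count of 10 and minimum total of 15), 1 mean per group, over 13912 genes, with Benjamini-Hochberg adjustment. DESeq2 1.42.0 and limma 3.58.1 were alternatives. CPM per library in the text are TMM-scaled, detection used library totals, and exon lengths came from GENCODE M21 (GRCm38) for 23310 genes. Tables and figures used Python 3.11.15. In data simulated with known folds of 1.5 and 2, the test recovered 94% and 98% in the male comparison. It recovered 93% and 96% in the female and 87% and 95% in the between-sex comparison. False calls were 6.34%, 5.03% and 2.15%, in this order. The simulation changed 200 genes, all by 1.5-fold or 2-fold and all with a mean above 1 CPM. Its rates do not cover smaller changes, such as those of Slc7a5 and Slc3a2, or lower members, such as Slc6a12 and Slc6a15. It held no differences between pools, so its false calls concern the spread between libraries only. No 2 libraries of a group agreed within sampling noise.

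The members and gene lists were chosen with earlier results of these data known. Named with values were 20 carriers with known roles in the tubule or in growing cells, the highest member per family, up to 8 called members per direction and sex, up to 6 members that differ between the sexes, and up to 2 called genes per direction of each pathway list; other tested members were named beside their family. Some genes that meet this rule are not reported here.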

Additional observations from a re-analysis of the deposited data

Results flagged for a closer look

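In 7 of 105 groups of 4 libraries, 1 library stood apart from the other three by Dixon's criterion, where chance gives about 1 in 20. The highest libraries were male WT 1 for Slc1a5 (36.1 CPM, against 32.6 to 33.0 CPM in the others), female WT 1 for Slc38a6 (16.5 CPM, against 13.4 to 13.6 CPM in the others), female WT 3 for Slc38a7 (43.8 CPM, against 42.5 to 42.7 CPM in the others) and female KO 3 for Slc7a6 (79.5 CPM, against 75.0 to 75.3 CPM in the others). The lowest were female KO 2 for Slc6a15 (0.699 CPM, against 0.855 to 0.877 CPM in the others), male WT 4 for Slc6a3 (0.107 CPM, against 0.404 to 0.453 CPM in the others) and female WT 4 for Slc7a3 (9.48 CPM, against 9.79 to 9.83 CPM in the others).

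The KO effect differed between the sexes, by the test of the difference itself, for 6 members. The male minus female difference of log2 fold changes was -0.50 for Slc6a6, -0.18 for Slc38a10, -0.86 for Slc7a2, -0.27 for Slc6a9, -0.52 for Slc7a11 and -0.14 for Slc7a5.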

How the results depend on the processing

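Counts of called members were recomputed with other scalings, tests, filters, fits and with each library left out in turn. Male calls came to 2 to 3 higher and 5 lower, female calls to 10 to 14 higher and 3 lower, and calls of a difference between the sexes to 4 to 6. Leaving out each library in turn gave 1 to 3 higher and 5 to 7 lower in male cells, 11 to 13 higher and 2 to 4 lower in female cells, and 4 to 6 between the sexes. No result reversed. Of the calls, 5 of 8 in male cells, 11 of 16 in female cells and 4 of 6 between the sexes held in every alternative, and 75 of the recomputed values of members that were not called had the other sign. No member was called over pools with any scaling or filter, and 22 to 35 members counted as detected under other thresholds. The replicate number as a block gave 3, 5, 14 and 3 calls (male higher, male lower, female higher, female lower) and 6 between the sexes, with Slc7a8 added in female cells. Same-numbered libraries of different groups had deviations correlated at 0.0592 on average (-0.0306 to 0.294, 21 pairs). For different numbers the average was -0.0197 (-0.191 to 0.135, 63 pairs). Of 15 libraries, 9 correlated best with their own number, a hint from the data of something shared by a number. The labels name no such source, so the main fit did not pair the libraries, and the fit with a block is given above. Depth limits what can be said of the 30 members below detection, each under 1 CPM in at least 1 library of every group. Many lay near or under the floor of 3 counts, while Slc6a12 reached 1.42 CPM (by library total) in female KO library 3.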

Other observations

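Enzymes that use the carried amino acids were set beside the carriers. Of 27 tested genes of glutamine, serine, proline and arginine metabolism, 3 were higher and 4 lower in male KO cells (median log2 fold change 0.010), and 13 were higher and 4 lower in female KO cells (0.070). Over all genes tested the shares were 10.1% higher and 10.1% lower in male and 20.7% higher and 18.6% lower in female cells. Gatm, which makes the creatine precursor from arginine and glycine, was higher in female KO cells, at 7.99 ± 0.660 CPM in female KO and 5.95 ± 0.338 CPM in female WT cells (SD; 0.42 ± 0.11, edgeR adjusted p = 0.00184), while the creatine carrier Slc6a8 was lower there. Shmt2 was also higher (0.39 ± 0.034, edgeR adjusted p = 1.42e-11). Arg2, the mitochondrial arginase, was low throughout and lower in female KO cells, at 0.494 ± 0.138 CPM in female KO and 1.20 ± 0.284 CPM in female WT cells (-1.28 ± 0.28, edgeR adjusted p = 0.000410), and Bckdha, of branched-chain amino acid breakdown, was lower (-0.24 ± 0.048, edgeR adjusted p = 0.000111). In male KO cells Prodh, which breaks down proline, and Phgdh were higher (0.43 ± 0.12, edgeR adjusted p = 0.00865 and 0.21 ± 0.032, edgeR adjusted p = 5.27e-06), and Bcat1, a branched-chain transaminase, and Pycr1 were lower (-0.28 ± 0.042, edgeR adjusted p = 4.69e-06 and -0.25 ± 0.087, edgeR adjusted p = 0.0350). The male Prodh call was lost without male KO library 2 (adjusted p = 0.0755). The Pycr1 call was lost in 5 of 24 alternatives, namely without male WT library 1, 3 or 4 or male KO library 1 or 3 (adjusted p between 0.0540 and 0.213).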
